A study of Sus scrofa with 8 samples.

Results

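Genes with many coding transcripts were described in the gene annotation that served the single-cell libraries of the study. The libraries came from submucosal glands (SMG), the glands beneath the airway surface, of 4 CFTR-/- and 4 wild-type newborn pigs. CFTR encodes the chloride and bicarbonate channel mutated in cystic fibrosis, and each animal gave 1 library, made with a droplet-based 3′ kit from glands dissected out of the trachea after most surface epithelium had been removed. A single annotation was used for all 8 libraries, so nothing below differs between CFTR-/- and wild-type animals. The members were selected on the number of transcripts: a protein-coding gene was included when at least 15 of its transcripts carried a coding sequence. This rule took 519 of the 20674 protein-coding genes with a coding transcript, or 2.51%. The number of coding transcripts was therefore fixed by the choice of members, and the counts below that rise with it are given as a description with no test. The annotation holds positions of exons and coding segments and no expression values, so how much of any transcript is present in SMG was not analysed here, and counts below have no replicate error.

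A gene gives several transcripts when RNA polymerase starts at different promoters, when the splicing machinery joins exons in different ways, or when the transcript is cut and polyadenylated at different sites. Different promoters yield alternative first exons, which change the 5′ untranslated region or the amino terminus of the protein. A cassette exon is an internal exon that some transcripts hold and others skip. Mutually exclusive exons are neighbors of which a transcript holds only 1, and microexons are very short cassette exons, best known from neurons. Alternative last exons change the 3′ end, which is the part of a transcript that a 3′ library samples.

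The shortest exons of the members show how small a unit of alternative splicing can be. The 10 shortest coding cassette exons, ties at 6 bases taken in alphabetical order, were printed with the 12 intron bases on either side, 5′ to 3′ on the strand of the gene. The exon is in capitals and the intron in lower case, with positions on Sscrofa11.1.
ARHGAP28 (chr6:100562744-100562744, -): ctgtcagtgaagGgtgtttttattc
CLASP1 (chr15:29985904-29985906, +): aattcacaacagAGAgtaagttcccat
CLASP2 (chr13:19357987-19357989, -): aactctcaatagAGAgtaagttggttc
NCAM1 (chr9:40930049-40930051, +): gctggtgaacagAAGgtaaagctcttt
APBB2 (chr8:31951495-31951500, -): aggggaactcagAGAGAGgtgttccagtgg
CLEC16A (chr3:32125718-32125723, -): tccttattccagTGTCATgtaagttaataa
CLIP1 (chr14:30463744-30463749, +): tcttccaatcagCAAATGgtttgtttcatg
DOCK10 (chr15:126455423-126455428, -): tgattgttccagGCTGTGgtaagttctctc
GIT2 (chr14:41018133-41018138, +): tttggaaataagACGGCTgtaagtaaacca
LOC110256043 (chr12:39403747-39403752, -): tcttttctcaagATGTAGgtatctgtgtga
In each of these the intron ended in ag before the exon and began with gt after it. CLASP1 and CLASP2, related proteins that stabilize the growing ends of microtubules, carried an exon of the same 3 bases, AGA. The 3 bases of NCAM1, the neural cell adhesion molecule, were AAG. The single base annotated as an exon of ARHGAP28 was held by 1 of its 15 coding transcripts and skipped by 14.

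Mutually exclusive coding exons were shown for 6 members because the 2 exons of a pair occupy the same place in the protein and can be compared base by base. Exons are again in capitals, with 6 intron bases on either side.
RBFOX1 upstream exon (chr3:34997909-34997948, -): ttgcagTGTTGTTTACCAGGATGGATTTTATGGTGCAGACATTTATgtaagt
RBFOX1 downstream exon (chr3:34991190-34991232, -): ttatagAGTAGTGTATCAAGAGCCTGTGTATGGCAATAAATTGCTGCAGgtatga
RBFOX2 upstream exon (chr5:11887743-11887782, +): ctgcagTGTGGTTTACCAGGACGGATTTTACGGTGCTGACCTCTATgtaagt
RBFOX2 downstream exon (chr5:11890802-11890844, +): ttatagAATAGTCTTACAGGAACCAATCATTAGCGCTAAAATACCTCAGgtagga
TPM1 upstream exon (chr1:108998047-108998122, -): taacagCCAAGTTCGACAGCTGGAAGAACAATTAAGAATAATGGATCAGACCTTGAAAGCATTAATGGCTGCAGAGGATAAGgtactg
TPM1 downstream exon (chr1:108997525-108997600, -): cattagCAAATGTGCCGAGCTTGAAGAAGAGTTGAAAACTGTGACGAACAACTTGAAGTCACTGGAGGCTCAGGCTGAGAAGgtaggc
KCNMA1 upstream exon (chr14:79581290-79581381, -): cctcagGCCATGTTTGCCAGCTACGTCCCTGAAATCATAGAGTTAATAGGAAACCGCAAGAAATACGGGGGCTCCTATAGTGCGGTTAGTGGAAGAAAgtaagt
KCNMA1 downstream exon (chr14:79581100-79581191, -): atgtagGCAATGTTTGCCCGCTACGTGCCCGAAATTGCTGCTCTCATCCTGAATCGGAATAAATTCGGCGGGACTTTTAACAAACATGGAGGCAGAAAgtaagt
SLC8A1 upstream exon (chr3:100155802-100155908, +): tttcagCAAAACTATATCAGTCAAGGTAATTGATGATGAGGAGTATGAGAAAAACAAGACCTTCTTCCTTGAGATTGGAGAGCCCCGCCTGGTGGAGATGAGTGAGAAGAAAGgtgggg
SLC8A1 downstream exon (chr3:100156442-100156545, +): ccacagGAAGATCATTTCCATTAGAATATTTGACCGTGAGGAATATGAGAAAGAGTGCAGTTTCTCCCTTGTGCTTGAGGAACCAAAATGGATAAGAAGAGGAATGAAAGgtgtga
PKM upstream exon (chr7:61028764-61028930, +): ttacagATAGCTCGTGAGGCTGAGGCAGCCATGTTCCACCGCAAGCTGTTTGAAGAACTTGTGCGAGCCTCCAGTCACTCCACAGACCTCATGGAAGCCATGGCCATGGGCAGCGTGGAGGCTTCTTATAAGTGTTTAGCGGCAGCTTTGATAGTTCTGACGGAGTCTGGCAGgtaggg
PKM downstream exon (chr7:61029321-61029487, +): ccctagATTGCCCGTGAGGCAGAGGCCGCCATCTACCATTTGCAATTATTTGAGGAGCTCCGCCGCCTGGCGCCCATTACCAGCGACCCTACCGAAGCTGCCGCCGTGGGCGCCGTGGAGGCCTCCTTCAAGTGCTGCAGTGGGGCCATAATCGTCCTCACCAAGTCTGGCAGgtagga
RBFOX1 and RBFOX2 are splicing factors, and in both genes an exon of 40 bases preceded an exon of 43 bases. In mammals the shorter of these has been described in brain transcripts and the longer in muscle transcripts. The 40-base exons of RBFOX1 and RBFOX2 agreed at 34 of 40 positions (85%), and the 43-base exons at 25 of 43 (58.1%). Within RBFOX1, 8 transcripts held the 40-base exon and 8 the 43-base exon, whereas in RBFOX2 they were held by 29 and 5. PKM encodes pyruvate kinase, and its 167-base exons are the known choice between the M1 form (upstream exon) and the M2 form (downstream exon). The PKM exons were the same at 101 of 167 positions (60.5%) and lay 390 bases apart, with 9 transcripts for the upstream and 4 for the downstream exon. The 92-base exons of KCNMA1, the pore of the large-conductance calcium-activated potassium channel, agreed at 57 positions (62%) and lay only 98 bases apart. The upstream exon was held by 45 transcripts and the downstream exon by 5. The 76-base exons of TPM1, a tropomyosin that coats actin filaments, agreed at 43 positions (56.6%). SLC8A1 encodes a sodium-calcium exchanger, and its upstream exon of 107 bases was held by 21 transcripts and its downstream exon of 104 bases by 6.

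A gene can also differ in its protein by its first exon. SLC4A7 and SLC4A11 belong to a family of bicarbonate transporters and relatives, and each had first exons at which different proteins start. Up to 90 bases of coding sequence in that exon are shown, counted from the start codon, which is in capitals.
SLC4A7 upstream start (chr13:14042791-14042838, -): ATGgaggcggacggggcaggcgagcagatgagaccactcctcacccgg
SLC4A7 downstream start (chr13:14013077-14013109, -): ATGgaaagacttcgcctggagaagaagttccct
SLC4A11 upstream start (chr17:32446887-32446929, +): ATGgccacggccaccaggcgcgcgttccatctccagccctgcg
SLC4A11 downstream start (chr17:32447885-32447974, +): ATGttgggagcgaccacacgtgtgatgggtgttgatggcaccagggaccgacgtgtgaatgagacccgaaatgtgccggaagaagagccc
The 2 first exons of SLC4A7 lay 28.3 kb apart. The upstream start was used by 10 of its 16 coding transcripts and the downstream start by 6, and the bases after the start codons differed. SLC4A11 had 5 first exon groups within 2.75 kb, of which 2 held a start codon.

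Finally, tandem acceptors were shown, at which the spliceosome can join an exon at either of 2 sites only 3 bases apart, so that transcripts differ by a single codon or by 3 untranslated bases. KMT2C, a histone methyltransferase, had the most such sites among members (5), and MAP2, a microtubule-binding protein of dendrites, had 4. The 3 bases that are exon or intron according to the site used are in capitals.
KMT2C (chr18:5097620-5097622, +): tttactattaagCAGaaatcaaag
KMT2C (chr18:5206287-5206289, +): acttttttccagAAGgagagctta
KMT2C (chr18:5259816-5259818, +): gtttttcaatagCAGctctctctg
KMT2C (chr18:5261430-5261432, +): ggtctcctgcagCAGaataattta
KMT2C (chr18:5261502-5261504, +): atggcttgtcagAAGatggcaaat
MAP2 (chr15:112410384-112410386, +): ttttatctttagCAGctgaagaga
MAP2 (chr15:112420035-112420037, +): ttcatccctaagAAGaagaaacgc
MAP2 (chr15:112426352-112426354, +): tcttattcatagCAGtttataaga
MAP2 (chr15:112429363-112429365, +): ttctttcaacagCAGcagctggtg
Every capital triplet here was CAG or AAG and followed an ag in the intron. Across all members, 234 of 238 tandem acceptors (98.3%) had AG before both sites. They were found in 181 of 519 members (34.9%), against 173 of the 666 genes with 10 to 14 coding transcripts (26%). Per 100 coding transcripts the direction turned, with 2.02 tandem acceptors in members and 2.62 in genes with 10 to 14. Per 100 different introns it did not, with 1.35 and 1.23.

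The distribution of coding transcripts per gene was steep and had an upper end that was not gradual. Of all protein-coding genes, 10566 had a single coding transcript, 8923 had 2 to 9 and 666 had 10 to 14. The 519 members held 11787 coding transcripts, with a median of 19. The threshold itself separated like genes: 87 genes had exactly 15 coding transcripts, among them ADGRG6, AFF3 and AKAP3, and 79 had 14, among them ABCC5, ADGRB2 and ADORA1. Both sets had a median of 8 different coding chains, 3 first exon groups, 1 last exon group and 3 cassette exons, where a coding chain is a distinct set of coding segments. At the upper end 17 genes had exactly 50 computationally predicted transcripts and none had more. KCNMA1 had the most coding transcripts (51), of which 50 were predicted. The next 16 genes had 50 each, among them ABI3BP, CLASP2, HDAC9, MAP2, MAP4, MAP4K4, MBNL1 and NBEAL2. Predicted models made up 11688 of the 11787, and 99 were curated.

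**Figure D1:**
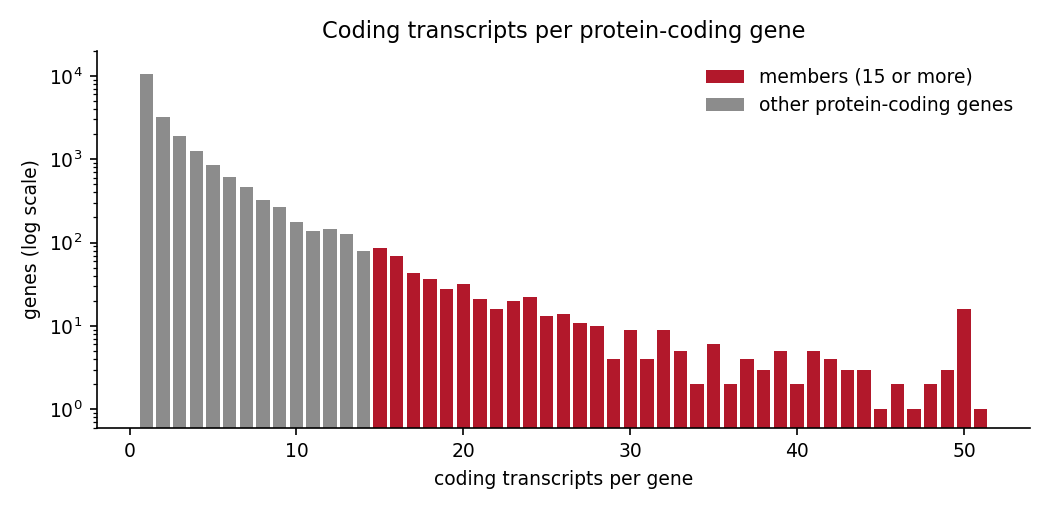
Number of protein-coding genes (log scale) with each number of coding transcripts. The 519 members are in red and the other genes in gray; there are 87 genes at 15 transcripts, between 1 and 3 genes at each count of 43 to 49, and 16 genes at 50 transcripts.

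For all 519 members the identifiers of coding transcripts matched those of the RefSeq table of the same assembly. Exon positions were not compared. Of the members, 513 lay on chromosomes and 6 on unplaced sequence. Chromosome 13 held the most (53 of 1259 genes), chromosome X held 25 of 762 and chromosome Y none of 73. Names of the form LOC, given where no symbol was assigned, were borne by 20 members (3.85%) and by 4106 of the 20155 other genes (20.4%). The annotation notes, for most predicted models, the number of RNA-seq samples in which all introns of the model were seen. These samples belong to the RefSeq annotation and are not the libraries of the study. The median was 40 samples for members (interquartile range, 16 to 105; 11610 transcripts with a stated number) and 54 for other genes (interquartile range, 18 to 137; 43028 transcripts).

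Members were long genes with many exons. Their median span was 125 kb, against 71.7 kb for genes with 10 to 14 coding transcripts and 29.3 kb for genes with 2 to 9. The longest coding sequence had a median of 2724 bases and 19 coding exons in members, 2192 bases and 14 exons in genes with 10 to 14, and 1401 bases and 9 exons in genes with 2 to 9. More exons leave more places at which transcripts can differ, and the contribution of length to the number of transcripts was not tested.

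Many transcripts of the members encoded the same protein. The 11787 coding transcripts made 7498 different coding chains, or 63.6 per 100 transcripts, against 61.2 in genes with 10 to 14 and 72.1 in genes with 2 to 9. The median member had 13 coding chains. In 107 members every transcript had a chain of its own, as in KCNMA1 (51 of 51), ABI3BP, CLASP2 and MAP4K4 (50 of 50 each). In 18 members all transcripts encoded a single chain. Among these were TAF1D (35 transcripts), a subunit of an RNA polymerase I factor, MUM1L1 (32), ST18 (30), a zinc finger transcription factor, and DAG1 (19), which encodes dystroglycan. RAB27A and RAB9A, small GTPases of vesicle traffic, had 19 and 16 transcripts with 1 chain each. ZBTB20, a transcription repressor, had 49 transcripts and 3 chains, and RHOF, a small GTPase, 49 transcripts and 5 chains. The transcripts of the single-chain genes differed only outside the coding sequence.

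**Figure D2:**
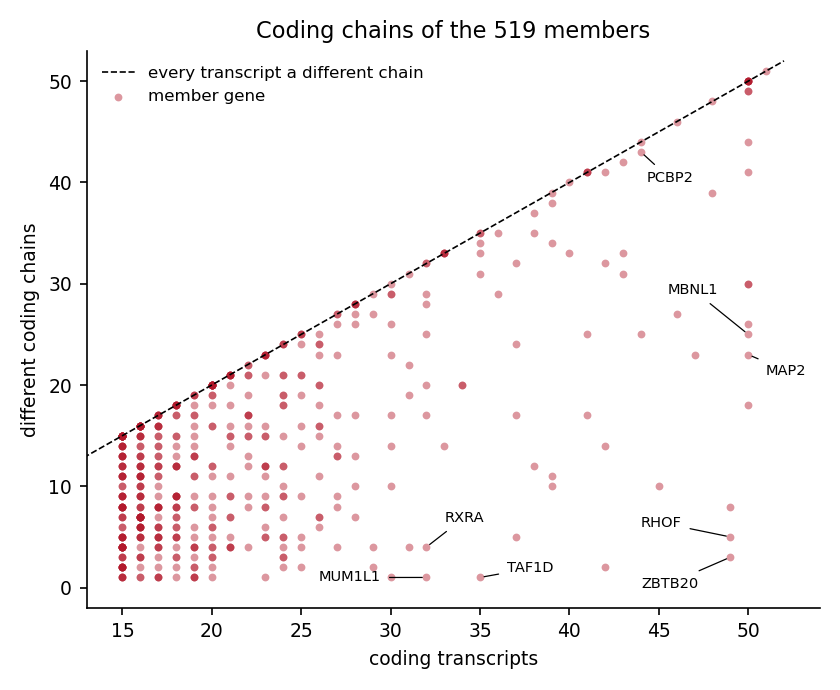
Different coding chains against coding transcripts, 1 point for each of the 519 members; darker points are several genes. Points on the dashed line, such as KCNMA1 at 51, have a chain for every transcript, and TAF1D, MUM1L1, ZBTB20 and RHOF lie near the bottom with 1, 1, 3 and 5 chains.

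Alternative first exons were the rule. First exons of coding transcripts that overlapped were merged into groups, and 421 of 519 members (81.1%) had at least 2 groups, against 521 of 666 genes with 10 to 14 coding transcripts (78.2%) and 4491 of 8923 with 2 to 9 (50.3%). The median was 3 groups per member. At least 5 groups were found in 182 members and at least 10 in 33. Where there were several, the outermost lay a median of 52.1 kb apart, against 17.9 kb in genes with 10 to 14. In 137 members they were over 100 kb apart. A start codon was present in at least 2 of the first exon groups in 143 members (27.6%). Of the 421 members with several groups, 278 had fewer than 2 groups with a start codon, but 343 had several start codon positions, which may lie in later exons, and 78 had a single start codon position.

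RXRA, the retinoid X receptor, had the most first exon groups, with 31 for 32 transcripts and 4 coding chains. Of these 31 groups, 26 were at most 30 bases long and 30 were held by a single transcript. Such short first exons were 138 of the 2156 first exon groups of members (6.4%), against 5.05% of 13767 groups in other genes with several, and 869 groups of members (40.3%) were held by a single transcript. PDE4D, a phosphodiesterase that breaks down cAMP, had 19 groups across 1481 kb, of which 10 held a start codon, for 26 transcripts and 16 coding chains. ESRRG, an orphan nuclear receptor, had 16 groups and 6 chains, NCK2, a signaling adaptor, 15 groups and 1 chain, and SOX5, a transcription factor, 14 groups and 10 chains. SVIL, an actin-binding protein, also had 14 groups. All 6 had a single last exon group.

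The widest arrays of first exons, beside that of PDE4D above, lay in genes of muscle and nerve. DMD, which encodes dystrophin, had 9 groups over 2468 kb on chromosome X, of which 6 held a start codon, and its coding sequences ranged from 1812 to 11142 bases. TENM3, a teneurin that guides neuronal connections, had 9 groups over 2248 kb, RBFOX1 6 over 1882 kb, and DLG2, a scaffold of the synapse, 13 over 1761 kb. All are very long genes, which leaves room for such distances: DMD spanned 2623 kb, TENM3 2584 kb, RBFOX1 2271 kb and DLG2 1971 kb. GNAS encodes the stimulatory G protein alpha subunit and is a textbook case of alternative first exons. It had 7 groups over 49.3 kb, and 3 of its 21 coding transcripts encoded secretogranin VI, which shared no coding base with the other 18. It was the sole member whose coding transcripts fell into 2 sets with no coding base in common and no transcript to link them. In PKM, 9 transcripts ended in a last exon group at 27.7 kb, and others began at 35.2 kb or later. These shared no base, but other transcripts linked them. IGF2, a fetal growth factor, had 6 groups, 17 transcripts and 5 chains.

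**Figure D3:**
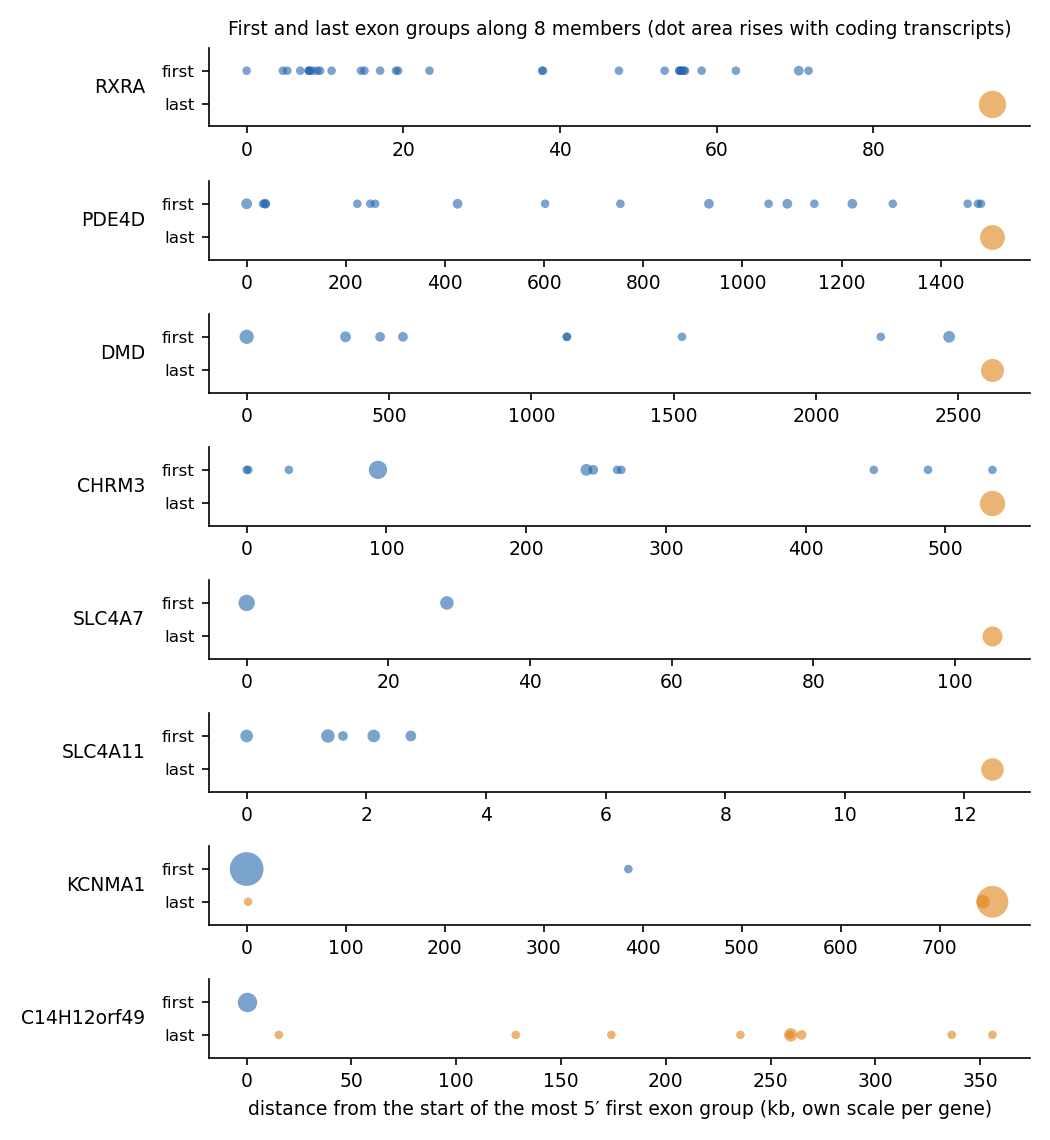
First (blue) and last (orange) exon groups of 8 members as distance in kb from the start of the most 5′ first exon group, with a scale for each gene. Dot area rises with the number of coding transcripts; RXRA has 31 first and 1 last group, and C14H12orf49 has 1 first and 9 last groups.

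Last exons varied less. At least 2 last exon groups were found in 152 members (29.3%), against 204 of 666 genes with 10 to 14 (30.6%) and 1444 of 8923 with 2 to 9 (16.2%). In 131 members at least 2 of these held a stop codon, so that the protein end differed too. The remaining 367 members (70.7%) ended all their coding transcripts in a single shared last exon group, and 306 of these had several first exon groups. Only 37 members had several last and a single first exon group, and 61 had a single group at either end. Of the 367 members with a single last exon group, 158 had the same 3′ end position in all coding transcripts, and the outermost ends lay a median of 4 bases apart. In 84 of them the ends still lay over 1000 bases apart. A shared last exon group therefore did not always mean a shared 3′ end, and the matrices that would show how reads of a 3′ library fell among transcripts were not analysed here.

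C14H12orf49 had the most last exon groups, 9 for 15 transcripts, spread from 15.3 to 356 kb after its single first exon group, and all 9 held a stop codon. ALG9, a mannosyltransferase of the N-glycan pathway, DNM3, a dynamin that cuts vesicles from membranes, FGGY, a carbohydrate kinase, and LARP1B, an RNA-binding protein, had 6 each, as did TSNARE1 and UNC93A. Some members joined transcripts of different proteins. PKM had 2 last exon groups (9 and 13 transcripts), and 11 of its 22 coding transcripts were annotated as poly [ADP-ribose] polymerase 6 and 11 as pyruvate kinase, and the annotation held no protein-coding gene with the symbol PARP6. LOC100523684 likewise joined 15 transcripts annotated as alpha-tectorin with 2 of a tubulin chaperone cofactor. More than 1 protein name was present in 15 members, and in these the number of transcripts counts models that carry different names.

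Cassette exons were found in nearly every member. An internal exon counted when another coding transcript joined the same flanking splice sites directly. Members held 2345 such exons (2034 with overlapping ones counted once), with at least 1 in 505 of 519 members (97.3%) and a median of 4, against 613 of 666 genes with 10 to 14 (92%) and 4250 of 8923 with 2 to 9 (47.6%). Per 100 coding transcripts there were 19.9 cassette exons in members, 23.2 in genes with 10 to 14 and 19.6 in genes with 2 to 9. Per 100 different introns there were 13.3, 10.9 and 5.63. ADGRE1, an adhesion receptor of macrophages with repeated EGF-like domains, had the most (18). They were 120 to 195 bases long, all were multiples of 3, and most alternated between 147 and 156 bases. Each was held by 21 or 22 of its 23 transcripts and skipped by 1 or 2. ABI3BP, a matrix protein, had 14, and LMO7, a junction protein, 12. All 14 of ABI3BP were coding, 42 to 84 bases long and multiples of 3.

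Most cassette exons that lay wholly within coding sequence had a length that preserves the reading frame. Of the 1274 that lay wholly inside the coding sequence of every transcript that held them, 1131 had a length that was a multiple of 3 (88.8%; exact 95% interval, 86.9 to 90.5). The share was 77.6% of 850 in genes with 10 to 14 coding transcripts, 71.7% of 3571 in genes with 2 to 9, and 72.9% of 4421 (71.5 to 74.2) in all other genes. Constitutive coding exons, present in every transcript that spans them, were multiples of 3 in 41.4% of 7357 cases in members and 39.3% of 74698 in other genes. Where at least 2 transcripts held and 2 skipped the exon, the shares were 90% in members and 82.7% in other genes. The intervals are Clopper-Pearson intervals and cover counting error only, since exons of a gene are not independent. The shares also depend on what was counted. Non-coding transcripts, 464 of them in members, were left out, and so were exons not wholly coding in every transcript that held them. Members were chosen on coding transcripts, so the differences between groups of genes are a description, and what part the choice had was not tested. Coding cassettes had a median length of 84 bases, against 125 for constitutive exons of members. All coding cassettes were multiples of 3 in 282 of the 398 members that had any. None of the 12 cassettes of ZBTB20 or the 7 of CHRM3 was wholly coding, and 2 and 4 of them overlapped coding sequence in part or in some transcripts.

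**Figure D4:**
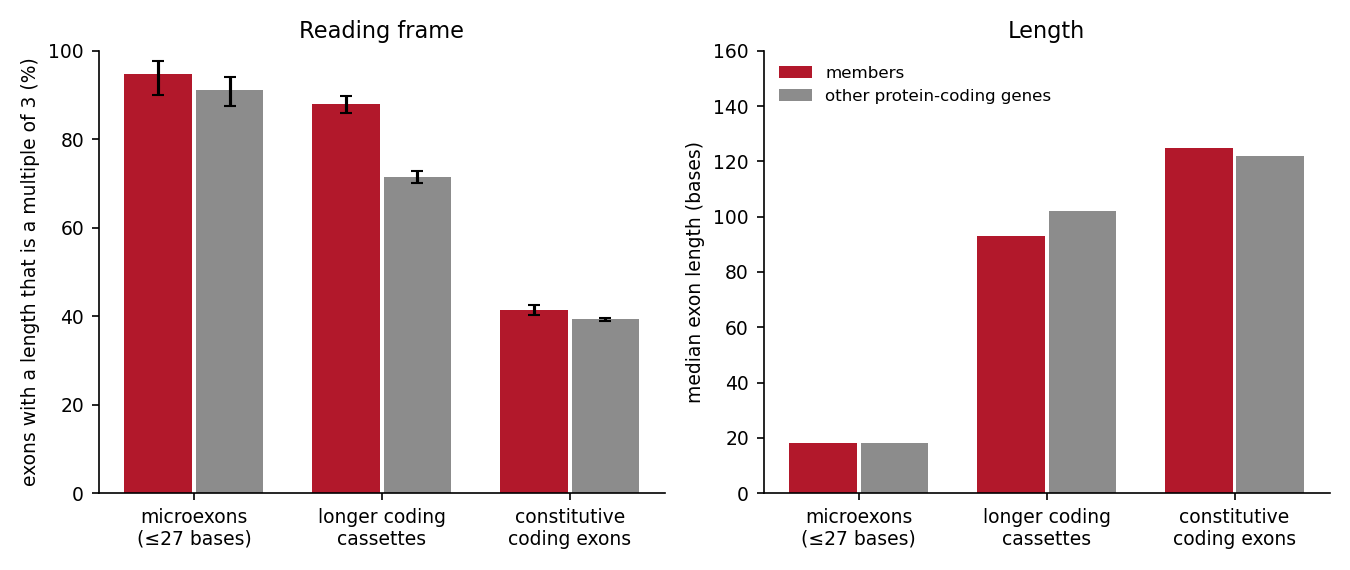
Left, share of exons whose length is a multiple of 3, with exact 95% intervals; right, median exon length in bases; members in red, other protein-coding genes in gray. Microexons of members reach 94.8%, longer coding cassettes 87.9% and constitutive coding exons 41.4%.

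Microexons, taken here as coding cassettes of at most 27 bases, numbered 154 in 101 members (19.5%), against 92 in 69 of 666 genes with 10 to 14 (10.4%). Per 100 coding transcripts the values were closer, at 1.31 in members and 1.18 in genes with 10 to 14. Per 100 different introns they were 0.875 and 0.553. Of the 154 in members, 146 were multiples of 3 (94.8%), and the most common lengths were 21 bases (29 exons) and 12 bases (24). Constitutive exons of this size were multiples of 3 in 71.6% of 67 cases. Exons that differ by a splice site were counted separately, and there were 150 microexons with overlapping ones counted once. Members with 4 microexons that did not overlap included NRXN3, a presynaptic adhesion protein, CADPS and CADPS2, which prime dense-core vesicles for release, CLASP1, the troponin TNNT3 and LOC110255286. Proteins of vesicle traffic and endocytosis had microexons in 18 of 41 members (43.9%) and junction and synapse scaffolds in 13 of 38 (34.2%). Adhesion molecules, receptors and other surface proteins had them in 12 of 38 (31.6%). Transcription factors had them in 4 of 48 (8.33%) and metabolic and glycan enzymes in 1 of 26 (3.85%). These shares also depend on how many coding cassettes a class had. Microexons were 27 of 130 coding cassettes in vesicle traffic, 16 of 149 in scaffolds and 28 of 114 in adhesion. They were 4 of 50 in transcription factors and 1 of 31 in the enzymes. The 6-base exons of DOCK10, CLIP1, CLEC16A and GIT2, shown above, were held by 16, 11, 12 and 9 transcripts and skipped by 19, 8, 9 and 4.

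The combinations of such exons were described in a few members with well known alternative splicing. CLASP2 had cassettes of 27, 63, 24, 3 and 51 bases, of which the 3-base exon was held by the most transcripts (34 of 50). MAP4K4, a kinase that acts on the cytoskeleton, had 4 cassettes of 162, 234, 9 and 192 bases, held by 24, 23, 27 and 28 of its 50 transcripts, so that each was close to even. TNNT3, which encodes troponin T of fast skeletal muscle, had 7 cassettes of 15 to 42 bases. Its last pair, of 41 bases each, was not a multiple of 3, and each exon was held by 27 transcripts and skipped by 12. MAPT encodes tau, whose 93-base exon of the microtubule-binding repeats was held by 19 transcripts and skipped by 7. TNC encodes tenascin C, a matrix protein with repeated fibronectin domains, and 4 of its 6 cassettes were 273 bases long. ELN, which encodes elastin, had cassettes of 42, 60 and 45 bases, held by 16, 19 and 19 of its 28 transcripts. Among transcription factors, TCF7L2, an effector of Wnt signaling, had 50 coding chains for 50 transcripts from a single first exon group, whereas MEF2C, a muscle and neural factor, had 49 transcripts, 8 chains and 9 first exon groups.

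Mutually exclusive pairs, with a transcript that skips both exons, numbered 119 in 73 members, with exons that differ by a splice site counted separately. CYP4F55, KLF12 and SEC22C had 5 each, and CHRM3 and RALYL 4. None of the pairs in these 5 genes was coding throughout. Every pair of SEC22C set an exon held by 1 transcript against the same 159-base exon, also held by 1. Each pair of KLF12 likewise had an exon held by 1 transcript. An exon held by 1 transcript has little occasion to share it with another, so such pairs are weak evidence of exclusion. Where no skipping transcript was required, 42 pairs in 31 members were wholly coding. In 35 of these the lengths of the pair differed by 0 or a multiple of 3, and in 7 they were equal: TPM1 had 126-base and 76-base pairs, and KCNMA1, TPM3, DNM2, EYA4 and PKM had the others. The 139-base exons of DNM2 agreed at 97 positions (69.8%) and the 101-base exons of EYA4, a phosphatase and coactivator, at 70 (69.3%). Those of EYA4 lay only 38 bases apart.

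The introns beside coding cassette exons held a known splicing motif more often than those beside constitutive exons. RBFOX proteins bind the RNA form of TGCATG and, in other mammals, enhance exons that lie before it. The motif was searched in the 200 bases after and before each exon, in windows free of other exons. After coding cassettes, 161 of 1134 windows of members held it (14.2%), against 382 of 6489 after constitutive coding exons of members (5.89%). The reverse complement CATGCA was present in 6.26% and 4.56%. It has the same share of G and C together but not the same number of each base, so it does not match the motif in base composition. After microexons of members the motif was present in 27 of 134 windows (20.1%) and the reverse complement in 14 (10.4%). Before the exon the shares were 10.5% for cassettes, 15.8% for microexons (21 of 133 windows) and 6.06% for constitutive exons, so the higher share was not confined to the downstream side. In other genes 9.3% of windows after coding cassettes held it, 16.9% of those after microexons (reverse complement, 5.64%) and 5.26% of those after constitutive exons. A match is a run of letters and not a measured binding site. The splice sites themselves were alike: AG preceded 100% of coding cassettes of members and 99.9% of their constitutive exons, and GT followed 99.1% and 99%. Pyrimidines made up a median of 70% of the 20 bases before the acceptor (the last 3 left out) for cassettes and 75% for constitutive exons.

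**Figure D5:**
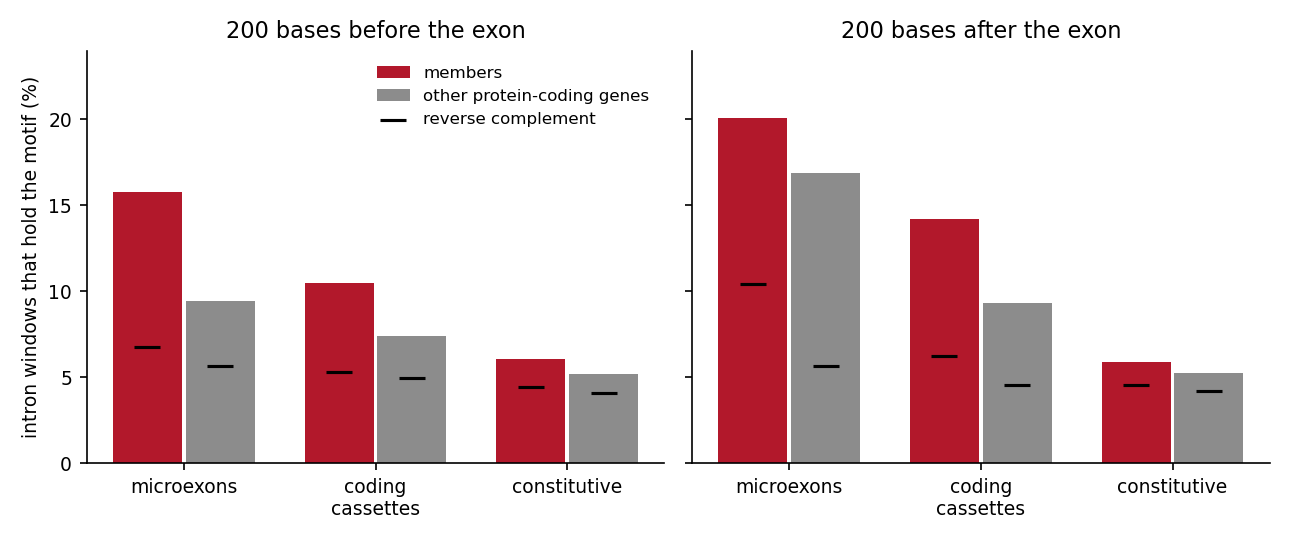
Share of 200-base intron windows with TGCATG before (left) and after (right) each exon class; bars are members (red) and other protein-coding genes (gray), black marks the reverse complement. Microexons are included among coding cassettes; after the exon the bars of members stand at 20.1%, 14.2% and 5.89%.

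By function, members were sorted into 16 classes by hand after the list was known. The largest were RNA processing, translation and decay (61 genes, 11.8%), protein kinases, phosphatases and signaling adaptors (56), DNA-binding transcription factors (48), and vesicle traffic, endocytosis and organelle proteins (41). Adhesion molecules and receptors, and membrane skeleton, junction and synapse scaffolds, held 38 each. Chromatin and coregulators followed with 36, actin and muscle proteins and small GTPases with their regulators with 29 each, microtubule, centrosome and cilium proteins with 27, and metabolic and glycan enzymes with 26. Ubiquitin and protein turnover held 24, ion channels and transporters 21, secreted and matrix proteins 11, and DNA repair and cell cycle 4, with 30 of other or unclear function.

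The classes differed in where their transcripts varied. Of the 48 transcription factors, 47 had at least 2 first exon groups (median, 5.5 groups), 6 had at least 2 last exon groups, and their transcripts made 38.2 different coding chains per 100. In the 38 membrane skeleton and scaffold genes, 34 had at least 2 first exon groups (median, 4), the transcripts made 84.5 chains per 100, and 96.6% of 149 coding cassettes were multiples of 3. Actin and muscle proteins made 81.4 chains per 100 transcripts, microtubule proteins 76.9 and ion channels and transporters 70.5. Metabolic and glycan enzymes made 40.2, and 67.7% of their 31 coding cassettes were multiples of 3. Secreted and matrix proteins, such as ELN, TNC and ABI3BP, had the lowest share of members with several first exon groups (5 of 11), and all 37 of their coding cassettes were multiples of 3. The median coding transcripts differed little, from 17 to 23 per class.

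Gene families with a shared role were counted from 14 lists against 2.51% of all protein-coding genes, whose median was 1 coding transcript. Membrane skeleton genes of the spectrin, ankyrin and dystrophin type were members in 8 of 25 cases (32%; EPB41 with 48 coding transcripts, EPB41L2 with 41), with a median of 5 coding transcripts over the list. Endocytosis and vesicle proteins were members in 12 of 39 (30.8%; RIMS1 with 50, BIN1 with 35), PDZ and MAGUK scaffolds in 8 of 27 (29.6%; DLG1 with 30), and synaptic and neural adhesion receptors in 9 of 31 (29%; ADGRL2 with 47). Actin filament and muscle proteins followed with 15 of 63 (23.8%; LMO7 with 48), then splicing regulators and RNA-binding proteins with 14 of 60 (23.3%; MBNL1 with 50, RBFOX2 with 41). Microtubule-associated proteins had 12 of 60 (20%; CLASP2, MAP2 and MAP4 with 50), transcription factors 11 of 59 (18.6%; TCF7L2 with 50), GEFs and GAPs of small GTPases 12 of 88 (13.6%; SIPA1L1 with 42), and protein kinases 9 of 76 (11.8%; MAP4K4 with 50). Calcium pumps and release channels had 2 of 23 (8.7%; SLC8A1 with 27), voltage-gated calcium channel subunits 2 of 25 (8%; CACNA2D1 with 21), and phosphodiesterases 1 of 22 (4.55%; PDE4D with 26). Extracellular matrix and growth factors had 1 of 95 (1.05%; TNC with 19), in a list that does not hold the members ELN, ABI3BP and IGF2. The lists were small and were chosen because alternative splicing is known in such genes. They do not hold every gene of a family, so their shares are not those of whole families. The transcription factor list, for example, held 11 members, against 48 sorted into that class by hand.

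Members in the study's lists of transport and host defense genes made up shares that were not above that of all protein-coding genes (2.51%). The study's curated list of transepithelial electrolyte transport named 401 of the protein-coding genes with a coding transcript, and 7 were members (1.75%). KCNMA1 had 6 coding cassettes of 9 to 174 bases, of which 5 were multiples of 3. Of its 51 transcripts, 44 ended in a last exon group 753 kb downstream of its first exon, 6 in a group 744 kb downstream, and 1 in a group after only 1.4 kb. SLC4A7, an electroneutral sodium bicarbonate cotransporter, had 16 transcripts with 16 chains. Its 3 coding cassettes of 369, 147 and 108 bases were held by 11, 12 and 9 transcripts and skipped by 5, 4 and 7, and all its transcripts shared the last exon. SLC4A11 had 21 transcripts and 15 chains, KCNC2, a delayed rectifier potassium channel, 17 and 11, KCNT2, a sodium-activated potassium channel, 17 and 15, and ATP2B2, a calcium pump of the plasma membrane, 15 and 6. Each of these 4 had several first exon groups and a single last exon group.

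CHRM3, the muscarinic receptor through which acetylcholine drives gland secretion, was described after its values had been seen. It had 27 coding transcripts from 11 first exon groups over 534 kb, 4 coding chains and a single last exon group with the stop codon. The most 3′ first exon group, of 1 transcript, lay inside the stretch of that last exon group. The next first exon group lay at 488 kb. The largest first exon group gave 13 of the 27 transcripts.

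The study's host defense list named 427 of the genes, and 10 were members (2.34%). PCBP2, an RNA-binding protein that restrains antiviral signaling, had 44 transcripts and 43 coding chains from 2 first exon groups, with coding cassettes of 93, 42 and 39 bases, and its largest last exon group held 54.5% of the transcripts. PUM2, an RNA-binding repressor of translation, had 27 transcripts and 17 chains. ATG7, an enzyme of autophagy, had 28 transcripts, 10 chains, 7 first exon groups and 4 last exon groups whose 3′ ends were spread over 178328 bases. EXOC1, a subunit of the exocyst that tethers secretory vesicles, had 16 transcripts, 16 chains and 8 cassettes. ANKRD17 had 16 transcripts and 16 chains, and ABCC9, FLNA, ZMYND11 and UNC13B had 15 or 16 transcripts with 7 to 11 chains. Of the 236 protein-coding genes on the study's list of edited models, 1 was a member (0.424%). It was ZBTB20, whose 49 coding transcripts came from 9 first exon groups over 709 kb and ended at the same position.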

How the data were processed

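The authors deposited 1 gene annotation, whose coordinates of exons and coding segments are the only values used (positions in bases on Sscrofa11.1). Per the file headers it is RefSeq Annotation Release 106, modified by the authors, and the submitters' processing notes name Cell Ranger 3.0.2. It is not specific to an animal, and depth per library is unknown here; count matrices were not analysed here.

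Transcripts with coding rows were grouped by gene (Python 3.11.15, numpy 2.4.6, scipy 1.17.1, matplotlib 3.10.9). Overlapping first, or last, exons formed a group, introns under 20 bases were ignored, and microexons had at most 27 bases. The measures passed 330 of 330 checks on 104 made gene models. Sequences were read from the Sscrofa11.1 genome of RefSeq. Intervals for shares are exact (Clopper-Pearson, 95%).

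The members and lists were chosen with earlier results of these data known, and the 16 function classes were assigned by hand after the members were seen. Named genes were those with the most coding transcripts (10), first exon groups, last exon groups, cassette exons, coding chains or mutually exclusive pairs, or the widest first exons (5 each). To these were added the 10 shortest microexons, members of the study's lists, the leading genes of each of the 14 gene lists, and the first genes by alphabet at 15 and 14 transcripts. Other genes, among them PKM, TPM1, DNM2, EYA4, RBFOX2, SLC8A1, GNAS, IGF2, KMT2C, TAF1D, RHOF, MAPT, ELN and LOC100523684, were named after their values were seen. No test was run, since 1 annotation has no replicates. Alternatives changed the threshold, the definition of each event and, chosen after seeing the data, kept only transcripts with all introns in at least 10 RNA-seq samples. Some genes named by the rule above are not reported here.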

Additional observations from a re-analysis of the deposited data

How the results depend on the processing

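Of 28 alternatives (19 planned and 9 chosen after seeing the data), 19 left a count within a factor of 1.5 of the reported value, or the share within its exact 95% interval, and 9 did not. The 519 members became 1185 with at least 10 coding transcripts, 255 with at least 20 and 227 with at least 15 different coding chains. The 152 members with alternative last exons became 230 when different stop codon positions counted, and 81 when each group needed at least 2 coding transcripts. The share of coding cassettes with a length that is a multiple of 3 was 81.3% when an exon inside any intron of another coding transcript counted, against 88.8%. Microexons numbered 367 with a limit of 51 bases, against 154. Different start and stop codon pairs numbered 1979, against 7498 coding chains. A single cluster of 3′ ends within 100 bases was found in 225 members, against 367 with a single last exon group. When only transcripts with all introns in at least 10 RNA-seq samples were kept, 364 genes had at least 15, and 383 of the members had alternative first exons, against 421. No paired analysis was possible because values per animal do not exist in an annotation. Nearly all transcripts are predictions, the count per gene stopped at 50 predicted models, and whether a transcript is present in SMG cannot be read from an annotation.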

Other observations

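Beside cassettes, members differed by shifts of splice sites, counted at any size, and by introns that lay inside an exon of another transcript. Per 100 coding transcripts, members had 6.01 internal exons with another acceptor and 3.78 with another donor, against 8.45 and 5.68 in genes with 10 to 14 coding transcripts. Per 100 different introns the values were 4.02 and 2.53, against 3.95 and 2.66. Introns that lay inside an exon of another transcript numbered 4.06 per 100 coding transcripts in members and 5.12 in genes with 10 to 14, and 2.72 and 2.4 per 100 introns. TCHH, which encodes trichohyalin of the hair follicle, had 21 of these, and RHOF had 17. Between 2 tropomyosin genes, the downstream 76-base exons of TPM1 and TPM3 agreed at 59 positions (77.6%) and the upstream ones at 47 (61.8%), whereas the 2 exons within TPM1 agreed at 43. These genes were chosen after their values were seen.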
